A study of Homo sapiens with 8 samples.

Results

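Calcium pump and calcium entry genes were examined in MCF10A cells, a spontaneously immortalized line of human mammary epithelial cells, grown in 3D hydrogels. The set comprised 10 genes of 25369 in the deposited table: the ATPase genes ATP2C2, ATP2C1, ATP2A2, ATP2B1 and ATP2B4, the store-operated entry genes STIM1, STIM2 and ORAI1, the channel gene TRPV6 and the inositol phosphate kinase gene ITPKA. The genes were chosen by function, but they were selected with the measured differences between these same libraries already known, so their values are given as a description. Of the 10 genes, 9 reached 10 normalized counts in 2 or more libraries and entered the fits, and TRPV6 did not.

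All cells were encapsulated for 7 days and came from the same line, with 2 replicate libraries per gel from independent trials. The soft IPN was an interpenetrating network of alginate and reconstituted basement membrane (rBM), and the stiff IPN was the same network stiffened by calcium crosslinking of the alginate. The soft col:rBM gel combined type 1 collagen (col-1) with rBM, and the stiff col gel was made of col-1. Calcium was added as a crosslinker to the stiff IPN and to none of the other 3 gels, so that stiffness and added calcium cannot be told apart in a comparison of the IPNs. Between the stiff IPN and stiff col gels, col-1, rBM, alginate and added calcium all change together. Between the soft col:rBM and stiff col gels, stiffness, col-1 density and rBM change together and cannot be told apart. That difference is called the stiffness effect of the collagen gels below. The gels were broken up in a calcium chelator before RNA was extracted.

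Cytosolic calcium is held low by ATP-driven pumps. The secretory pathway pumps encoded by ATP2C1 and ATP2C2 load the Golgi and related vesicles, the SERCA pump encoded by ATP2A2 loads the endoplasmic reticulum (ER), and the plasma membrane pumps encoded by ATP2B1 and ATP2B4 expel calcium from the cell. When the ER store empties, the ER sensors STIM1 and STIM2 open ORAI1 channels in the plasma membrane, which is called store-operated entry. In the mammary gland some proteins of these families serve the transport of calcium into milk, and the ATP2C2 product is also known to bind ORAI1. ITPKA phosphorylates inositol trisphosphate, the messenger that releases calcium from the ER.

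The libraries held between 13065615 and 18590052 reads on genes. The epithelial markers KRT5, KRT14, KRT17, KRT18, TP63, CDH1, EPCAM and ITGA6 were present in every library, at a normalized count of 102 or more. Their sum lay between 44778 and 94664 in the soft IPN, 60324 and 142960 in the stiff IPN, 37268 and 71287 in the soft col:rBM gel and 24724 and 59949 in the stiff col gel, and its part in the results was not tested. The leukocyte marker PTPRC was at 0 throughout, the endothelial markers ran from 2 to 32 (PECAM1) and from 0 to 7 (CDH5), and the adipocyte markers from 2 to 24 (PLIN1) and from 1 to 4 (ADIPOQ). The lysosomal gene CD68, also listed as a leukocyte marker, ran from 324 to 5017. Of the fibroblast markers, DCN ran from 526 to 1217, COL1A1 from 168 to 333 and PDGFRB from 4 to 9. The summed leukocyte list, which was CD68 alone in effect, lay between 324 and 1220 in the stiff IPN, between 2092 and 4222 in the soft IPN, between 1348 and 5017 in the soft col:rBM gel and between 990 and 4360 in the stiff col gel, and its part in the results was not tested. In these bulk libraries, fewer cells that express a gene and less of its RNA per cell cannot be told apart.

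ITPKA and ATP2B4 had the highest Pearson r among the pairs of genes in the set (0.93 on the log2 scale, 8 libraries of 2 trials). Both were lower in replicate 2 than in replicate 1 in every gel, a shift that enters r, and shared regulation was not tested. The 250 bases before the annotated RefSeq start (GRCh38.p14) of each gene are shown. The ITPKA window is chr15:41493624-41493873 and the ATP2B4 window is chr1:203626582-203626831, both on the plus strand. Capitals mark a match to the STAT motif TTCNNNGAA, to the TEAD motif GGAATG or to the AP-1 motif TGANTCA, searched on both strands.
ITPKA: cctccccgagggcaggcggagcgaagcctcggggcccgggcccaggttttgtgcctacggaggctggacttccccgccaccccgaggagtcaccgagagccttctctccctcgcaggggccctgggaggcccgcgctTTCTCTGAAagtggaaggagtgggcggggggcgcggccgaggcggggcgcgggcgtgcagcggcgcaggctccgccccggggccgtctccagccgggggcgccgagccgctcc
ATP2B4: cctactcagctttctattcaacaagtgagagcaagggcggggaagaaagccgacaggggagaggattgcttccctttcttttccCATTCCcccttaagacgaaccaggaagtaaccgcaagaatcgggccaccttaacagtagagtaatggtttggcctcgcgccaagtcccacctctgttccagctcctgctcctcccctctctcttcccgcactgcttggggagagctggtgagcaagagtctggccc
The ITPKA window held 1 STAT match, which begins 113 bases before the start, and the ATP2B4 window held 1 TEAD match on the minus strand, which begins 166 bases before the start. RefSeq windows were on hand for 8 of the genes, 15 windows in all, of which some overlap. A STAT match was found in 1 of the 15 windows against 6.57% of 35116 promoters, and a TEAD match in 2 of the 15, those of ATP2B4 and of 1 ATP2C1 start, against 11.9%. None of the 15 held an AP-1 match (6.57% of all promoters), a cAMP response element TGACGTCA (1.65%) or a TATA box TATAAA (10.7%). An E-box CANNTG, which can overlap other motifs, occurred in 6 windows (61.8% of all promoters). The ITPKA window was GC rich, at 76.8%, and the ATP2B4 window was at 55.6%, with a median of 58% over all promoters. A match of letters is a description and not a site of binding.

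Differences between gels are given as log2 differences of (normalized count + 1), which understate the change of genes with few reads, with the standard error (SE) of limma fitted to all 13369 genes tested and Benjamini-Hochberg adjusted p-values. A gene was called at an adjusted p under 0.05. Between the stiff and the soft IPN, 0% of all genes were called when the trial was not modelled, at 1245 genes with an unadjusted p under 0.05, and 3.82% were called when the replicate number was kept as a block, of which the lower ones made up 2.13% of all genes. With the block, 2 of the 9 genes of the set were called, ATP2C2 and ITPKA, both lower in the stiff IPN, and without it none was. Both were known to differ when the set was drawn up, so nothing is read from that count. The median log2 difference was −0.28 over the 9 genes, −0.08 over 109 other calcium handling genes and −0.01 over all genes.

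ATP2C2 (chr16:84402133-84497793, plus strand; hg19 as for all gene positions here) had the largest range of gel means in the set, 4.23 on the log2 scale. Its normalized counts were 236 and 130 in the soft IPN, 21 and 3 in the stiff IPN, 351 and 70 in the soft col:rBM gel and 83 and 20 in the stiff col gel, each pair in the order replicate 1 and replicate 2. Within each replicate the stiff IPN was the lowest of the 4 gels, while across replicates the 21 of the stiff IPN lay above the 20 of the stiff col gel. The share of all genes with the stiff IPN lowest or highest within each replicate was not counted. Nothing is therefore read from that pattern, for ATP2C2 or for the genes below. The means were 183 ± 75 (SD, n = 2) in the soft IPN and 12 ± 12.7 in the stiff IPN.

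The log2 difference of ATP2C2 between stiff and soft IPN was −4.23 (SE 1.08, limma adjusted p = 0.491; with the replicate block SE 0.41, adjusted p = 0.00669). It was −3.43 in replicate 1 and −5.03 in replicate 2. In reads, replicate 1 had 24 in the stiff and 229 in the soft IPN, a level 11.3-fold lower (95% exact counting interval 7.39 to 18), and replicate 2 had 3 and 115, a level 39.5-fold lower (13.2 to 194). These intervals cover counting error only. The stiff IPN value of replicate 2 lies at the level of 3 reads that is used as the detection floor for TRPV6 below. The −5.03 therefore rests on a value at that floor, and the −4.23 does in part. Without that library the log2 difference in the fit with no block was −3. That fit sets replicate 1 of the stiff IPN against both soft IPN libraries. The blocked call was lost without the soft IPN replicate 2 (adjusted p = 0.185). The annotated antisense gene ATP2C2-AS1 overlaps ATP2C2 and has no entry of its own in the deposited table. Without strand information the reads of the pair cannot be told apart.

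Within the collagen gels ATP2C2 was also lower on the stiff side. The log2 difference between stiff col and soft col:rBM was −1.91 (SE 1.08, adjusted p = 1; block SE 0.41, adjusted p = 0.627), with −2.07 and −1.76 in the replicates, which corresponds to 4.23-fold and 3.5-fold lower counts. The libraries of these gels overlapped across replicates, since 83 in replicate 1 of stiff col exceeded 70 in replicate 2 of soft col:rBM. The difference between the collagen and the IPN stiffness effects was 2.32 (SE 1.53, adjusted p = 1; block SE 0.58, adjusted p = 0.282), so a difference between the gel systems was not shown. Stiff col exceeded stiff IPN by 2.16 (SE 1.08, adjusted p = 0.799; block SE 0.41, adjusted p = 0.0391), and that blocked call was lost without replicate 2 of the stiff IPN or without either stiff col library (highest adjusted p = 0.276).

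ATP2C1 (chr3:130569439-130735556, plus strand), the widely expressed secretory pathway pump, varied less, with a range of gel means of 0.26 on the log2 scale. The normalized counts of ATP2C1 were 2008 and 2309 in the soft IPN, 2041 and 1646 in the stiff IPN, 2023 and 2158 in the soft col:rBM gel and 2184 and 2196 in the stiff col gel. The stiff IPN was lowest in replicate 2 and lay within the other gels in replicate 1. Its log2 difference between stiff and soft IPN was −0.23 (SE 0.18, adjusted p = 0.695; block adjusted p = 0.395), with 0.02 in replicate 1 and −0.49 in replicate 2.

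ATP2A2 (chr12:110718561-110788898, plus strand), which encodes the ER pump, was lowest in the stiff IPN in both replicates. The normalized counts were 5347 and 6085 in the soft IPN, 4896 and 4229 in the stiff IPN, 5877 and 5905 in the soft col:rBM gel and 5745 and 5955 in the stiff col gel. Both stiff IPN libraries lay below the other 6, a pattern shown by 7.53% of all genes tested. The log2 difference was −0.33 (SE 0.19, adjusted p = 0.589; block adjusted p = 0.224) against the soft IPN and −0.35 (SE 0.15, adjusted p = 0.415; block adjusted p = 0.108) against the mean of the other 3 gels, and neither passed the threshold. Soft col:rBM and soft IPN differed by 0.05 (SE 0.19), and stiff col and soft col:rBM by −0.01 (SE 0.19).

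ATP2B4 (chr1:203595960-203713209, plus strand), a pump of the plasma membrane, was lower in the stiff IPN in both replicates. Its normalized counts were 5324 and 4901 in the soft IPN, 3976 and 2191 in the stiff IPN, 7095 and 3954 in the soft col:rBM gel and 7008 and 3676 in the stiff col gel. Within each replicate the stiff IPN was the lowest gel, at 1.34-fold and 2.24-fold below the soft IPN, but replicate 1 of the stiff IPN lay above replicate 2 of both collagen gels. The log2 difference was −0.79 against the soft IPN (SE 0.43, adjusted p = 0.576; block SE 0.21, adjusted p = 0.0738). Stiff col exceeded stiff IPN by 0.78 (SE 0.43, adjusted p = 0.818; block adjusted p = 0.1), at 0.82 and 0.75 in the replicates.

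ATP2B1 (chr12:89981826-90103143, minus strand), the other plasma membrane pump, went in opposite directions in the trials. In normalized counts it stood at 819 and 1323 in the soft IPN, 1059 and 969 in the stiff IPN, 751 and 1382 in the soft col:rBM gel and 763 and 1554 in the stiff col gel. In replicate 1 the stiff IPN was the highest gel and in replicate 2 it was the lowest. The log2 difference between stiff and soft IPN was 0.37 in replicate 1 and −0.45 in replicate 2, and −0.04 overall (SE 0.43, adjusted p = 0.984; block adjusted p = 0.943).

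**Figure D1:**
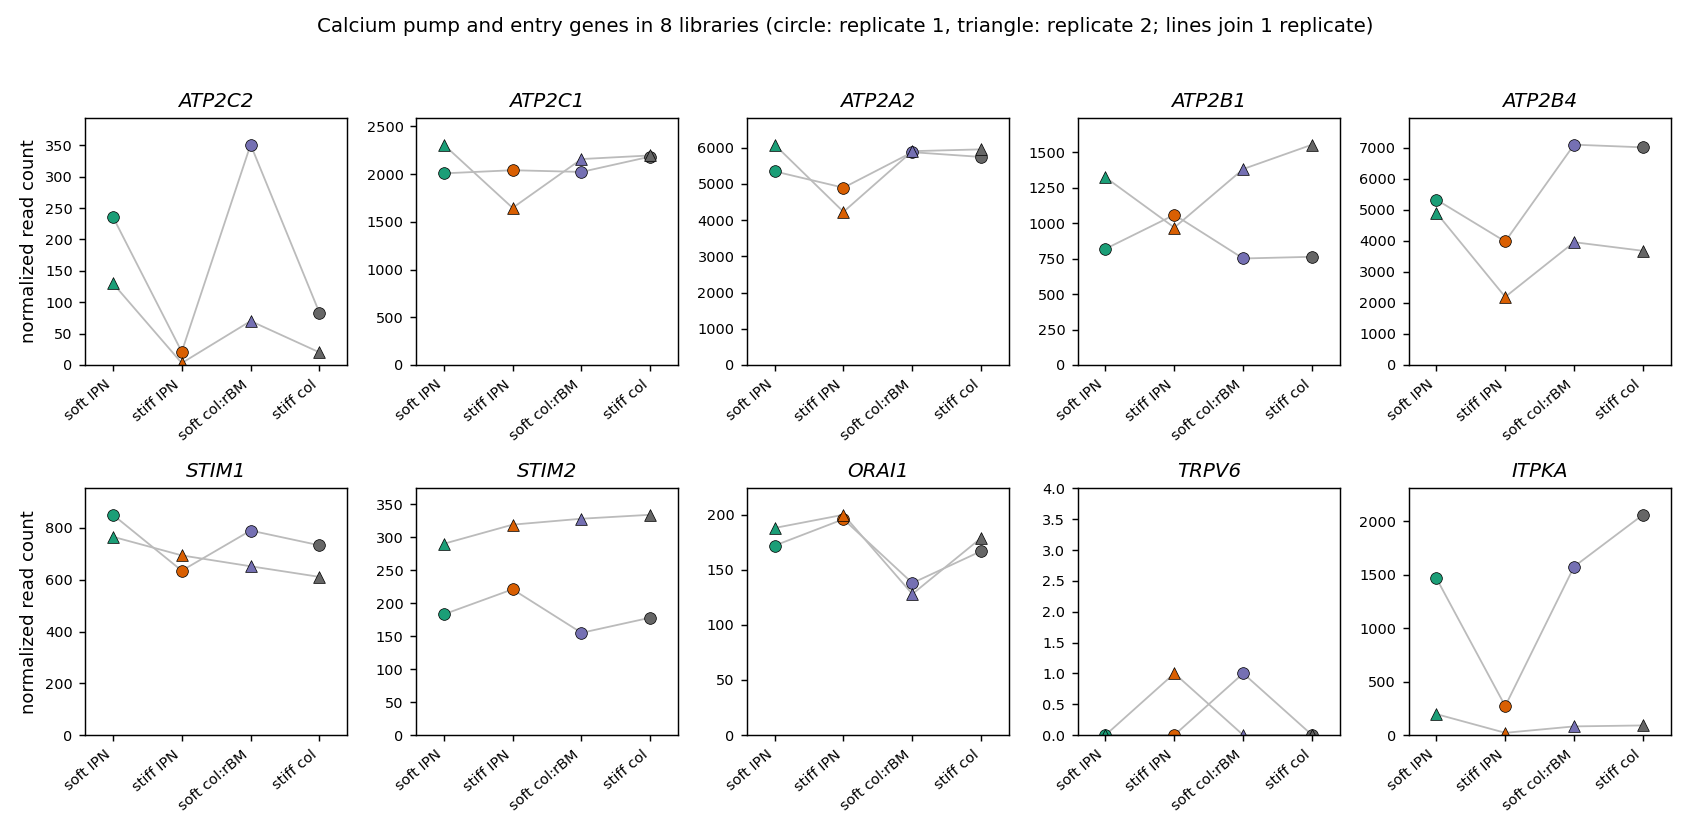
Normalized read counts (linear axes from 0, 1 panel per gene) of the 10 calcium pump and entry genes in the 4 gels, with circles for replicate 1, triangles for replicate 2 and lines joining the libraries of 1 replicate. ATP2C2, ATP2A2, ATP2B4 and ITPKA have their lowest point of each replicate in the stiff IPN, ORAI1 has its highest there, and TRPV6 is at 0 or 1. The share of all genes with such a point in each replicate was not counted.

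STIM1 (chr11:3875757-4114440, plus strand), the main ER calcium sensor, gave normalized counts of 851 and 766 in the soft IPN, 635 and 694 in the stiff IPN, 790 and 652 in the soft col:rBM gel and 733 and 611 in the stiff col gel. Both stiff IPN libraries lay below both soft IPN libraries, but not below those of the collagen gels. The log2 difference between the IPNs was −0.28 (SE 0.20, adjusted p = 0.65; block adjusted p = 0.297). Stiff col and stiff IPN differed by 0.01 (SE 0.20), with 0.21 in replicate 1 and −0.18 in replicate 2.

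STIM2 (chr4:26859223-27027003, plus strand), a sensor of smaller falls in store calcium, gave normalized counts of 183 and 290 in the soft IPN, 221 and 319 in the stiff IPN, 155 and 328 in the soft col:rBM gel and 178 and 334 in the stiff col gel. Replicate 2 exceeded replicate 1 in all 4 gels, by 1.44-fold to 2.12-fold, and all 4 replicate 2 libraries lay above all 4 replicate 1 libraries. The share of all genes without such overlap was not counted. Of all genes tested, 44.5% moved the same way between the replicates in all 4 gels, in either direction. The log2 difference between stiff and soft IPN was 0.20 (SE 0.47, adjusted p = 0.913; block SE 0.20, adjusted p = 0.562).

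ORAI1 (chr12:122064414-122081124, plus strand), the channel subunit opened by the STIM proteins, varied little between replicates and had its highest values in the stiff IPN. The counts, normalized, were 172 and 188 in the soft IPN, 196 and 200 in the stiff IPN, 138 and 128 in the soft col:rBM gel and 167 and 179 in the stiff col gel. Both stiff IPN libraries lay above the other 6, as they did for 7.91% of all genes tested, and both soft col:rBM libraries lay below the other 6. The share of all genes with that soft col:rBM pattern was not counted. The log2 difference was 0.14 between stiff and soft IPN (SE 0.23, adjusted p = 0.865; block adjusted p = 0.698) and 0.30 between the stiff IPN and the other 3 gels (SE 0.19, adjusted p = 0.551; block adjusted p = 0.257). Soft col:rBM differed from soft IPN by −0.43 (SE 0.23, adjusted p = 1; block adjusted p = 0.991).

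TRPV6 (chr7:142568961-142583490, minus strand), an epithelial calcium channel, had a normalized count of 0 in 6 libraries and of 1 in replicate 2 of the stiff IPN and replicate 1 of the soft col:rBM gel. A count of 0 allows up to 3 reads, which corresponds to 2.41 to 3.73 normalized counts in these libraries, so TRPV6 was not detectable above that level in any gel and no difference could be tested.

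ITPKA (chr15:41785591-41795749, plus strand) differed widely between trials as well as between gels. Its normalized counts were 1467 and 196 in the soft IPN, 271 and 21 in the stiff IPN, 1575 and 81 in the soft col:rBM gel and 2060 and 90 in the stiff col gel. Replicate 1 exceeded replicate 2 in all 4 gels, by 7.48-fold in the soft IPN, 12.9-fold in the stiff IPN, 19.4-fold in the soft col:rBM gel and 22.9-fold in the stiff col gel. In each replicate the stiff IPN was the lowest gel, 5.41-fold and 9.33-fold below the soft IPN, while the 271 of its replicate 1 lay above all 4 replicate 2 libraries.

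The log2 difference of ITPKA between stiff and soft IPN was −2.80 (SE 2.02, adjusted p = 0.664; block SE 0.35, adjusted p = 0.016), and the blocked call was lost without replicate 2 of the soft IPN (adjusted p = 0.239). Stiff col exceeded stiff IPN by 2.49 (SE 2.02, adjusted p = 0.878; block SE 0.35, adjusted p = 0.0166), at 2.92 and 2.05 in the replicates, and that blocked call was lost without replicate 1 of stiff col (adjusted p = 0.128). Stiff col and soft col:rBM differed by 0.27 (SE 2.02, adjusted p = 1 with and without the block), with 0.39 and 0.15 in the replicates. The difference between the collagen and the IPN stiffness effects was 3.07 (SE 2.86, adjusted p = 1; block SE 0.49, adjusted p = 0.145).

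**Figure D2:**
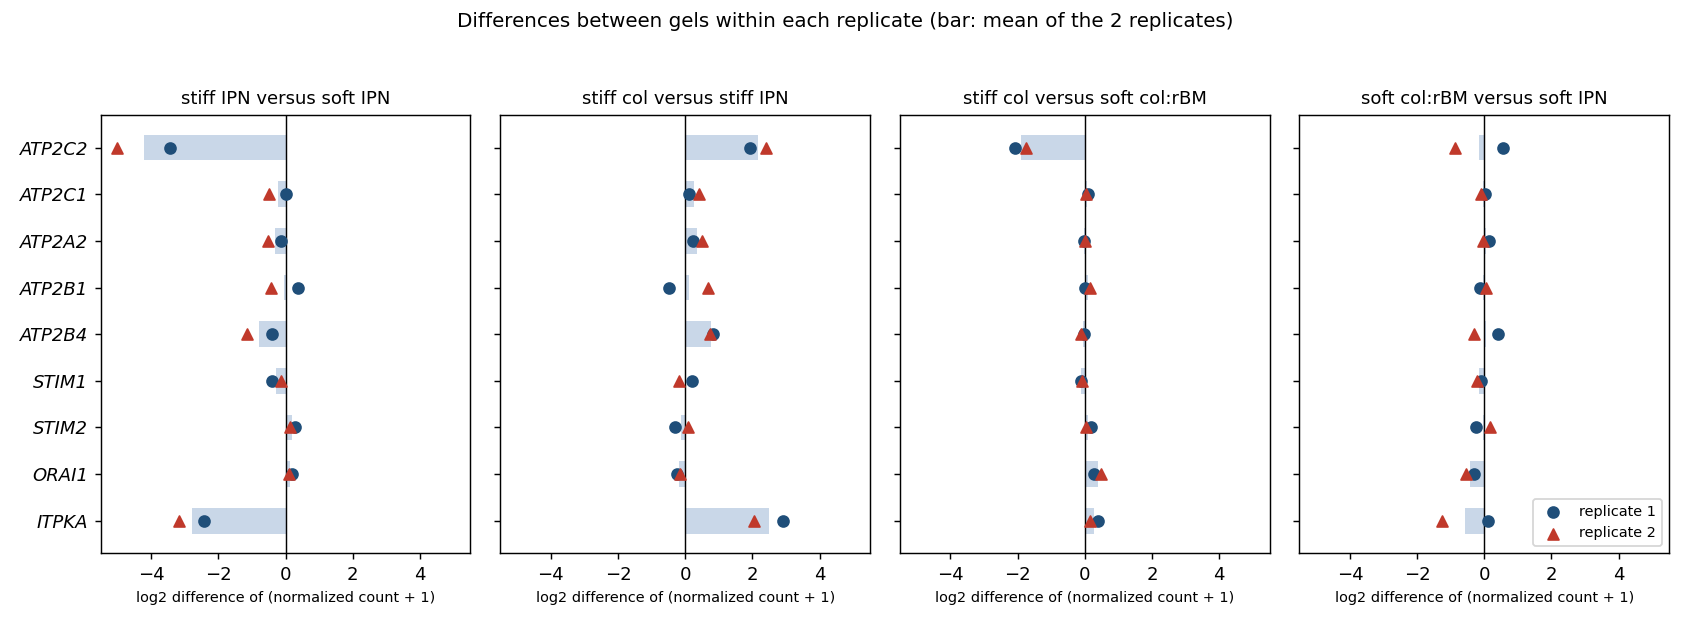
Log2 differences of (normalized count + 1) between gels for the 9 genes tested, 1 panel per comparison, with the circle for replicate 1, the triangle for replicate 2 and the bar for their mean. In the stiff IPN against the soft IPN the replicates of ATP2C2 (−3.43 and −5.03) and ITPKA (−2.43 and −3.16) lie on the same side, while those of ATP2B1 (0.37 and −0.45) lie on opposite sides.

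Over the set, the stiff IPN stood below the soft IPN in both replicates for 5 genes (ATP2C2, ATP2A2, ATP2B4, STIM1 and ITPKA) and above it in both for STIM2 and ORAI1. The share of all genes that did so in both replicates was not counted, so nothing is read from these numbers. The stiff and soft IPN libraries did not overlap for 5 genes. ATP2C2, ATP2A2, ATP2B4 and STIM1 were lower in the stiff IPN, as were 21.4% of all genes tested, and ORAI1 was higher, as were 20.5%. Between stiff col and stiff IPN, 0% of all genes were called without the block, 838 having an unadjusted p under 0.05, and 2.47% with it, 1% higher and 1.47% lower in stiff col. ATP2C2 and ITPKA were the 2 genes of the set called, both higher in stiff col, and the median of the set was 0.26 against 0.04 for the other calcium handling genes and 0 for all genes. Both comparisons share the stiff IPN libraries.

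Against the mean of the other 3 gels, the stiff IPN had 0.0224% of all genes called without the block and 8.28% with it, 3.84% higher and 4.44% lower. None of the set was called without the block, the lowest adjusted p being 0.279, that of ATP2C2. With the block 3 were called, all lower: ATP2C2 at −3.49 (SE 0.33, adjusted p = 0.00312), ITPKA at −2.50 (SE 0.29, adjusted p = 0.00477) and ATP2B4 at −0.81 (SE 0.17, adjusted p = 0.0318). With 1 library left out, the blocked adjusted p was at most 0.0194 for ATP2C2 and 0.0232 for ITPKA, from which nothing is read for genes selected on their differences. Where a stiff IPN library was left out, the single remaining one was assumed to vary like the other gels. Without replicate 2 of the stiff IPN, the differences in the fit with no block came to −2.26 for ATP2C2 and −0.69 for ITPKA. That fit sets replicate 1 of the stiff IPN against both replicates of the other gels. Within replicate 1 alone the differences were −3.12 for ATP2C2 and −2.63 for ITPKA. The ATP2B4 call was lost without replicate 2 of the stiff IPN or replicate 1 of either collagen gel (highest adjusted p = 0.0835).

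No gene of the set was called in the other comparisons, with or without the block. Between stiff col and soft col:rBM, 0% of all genes were called by either fit, at 140 genes with an unadjusted p under 0.05, and the set spanned −1.91 (ATP2C2) to 0.38 (ORAI1). Between soft col:rBM and soft IPN, 0% were called without and 0.0224% with the block, at 190 genes with an unadjusted p under 0.05, and the set spanned −0.58 (ITPKA) to 0.05 (ATP2A2, ATP2B4). For the difference between the stiffness effects of the collagen gels and the IPNs, 0% were called without and 0.015% with the block, at 278 genes with an unadjusted p under 0.05.

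Rescaling the libraries to equal totals brought the median of all genes from −0.01 to 0.26 on the log2 scale between the IPNs and to 0.18 between the stiff IPN and the other gels, and 12 of the 54 differences of the set changed sign. ATP2C2 remained at −3.99, ITPKA at −2.53 and ATP2B4 at −0.52 between stiff and soft IPN, while ATP2A2 came to −0.06 and STIM1 to −0.01. In that comparison ORAI1 moved from 0.14 to 0.41 and STIM2 from 0.20 to 0.47. ATP2C1 changed sign from −0.23 to 0.04 and ATP2B1 from −0.04 to 0.23, and against the other 3 gels STIM1 changed from −0.14 to 0.05 and ATP2B1 from −0.05 to 0.13. With the block and equal totals, the split of all called genes moved from 226 higher and 285 lower to 692 higher and 168 lower between the IPNs, and from 513 and 594 to 968 and 337 against the other 3 gels. The counts of genes of the set called with the block stayed at 2, 2 and 3 in these comparisons of the stiff IPN.

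Levels of different genes were compared per kilobase of annotated exons, counting all isoforms. By the median of the 8 libraries, ATP2B4 came first at 467 normalized counts per kb, followed by ATP2A2 at 423, ATP2C1 at 247, ITPKA at 112, ATP2B1 at 106, ORAI1 at 61.7, STIM1 at 59.3, STIM2 at 30.8, ATP2C2 at 10.4 and TRPV6 at 0. ATP2B4 exceeded ATP2A2 in 5 of 8 libraries and ATP2C1 exceeded ITPKA in 5. ITPKA exceeded ATP2B1 in 4 and ORAI1 exceeded STIM1 in 4, so these neighbours kept no fixed order over the libraries. For ITPKA and ATP2B1 the order followed the trial, with ITPKA above in every replicate 1 library and below in every replicate 2 library. ATP2B4 also exceeded ATP2A2 in every replicate 1 library. ATP2A2 exceeded ATP2C1, ATP2B1 exceeded ORAI1, and STIM1 exceeded STIM2 in all 8. ITPKA had the widest spread per kb in counts, from 10 to 984, and STIM2 exceeded ATP2C2 in 6 libraries.

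**Figure D3:**
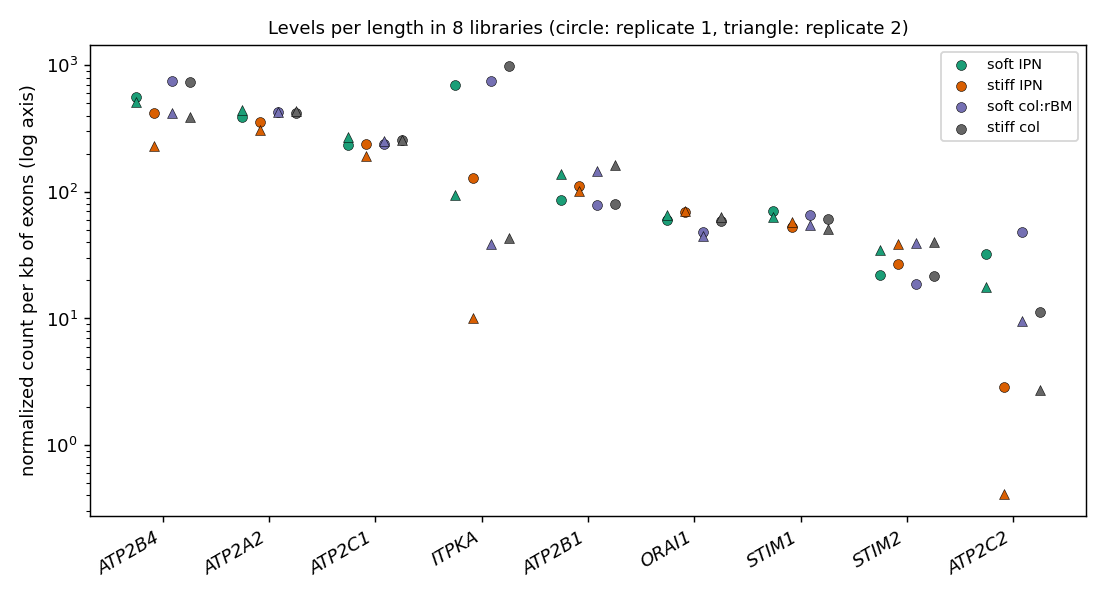
Normalized counts per kb of exons (log axis) of the 9 genes tested in order of their median, with colours for the gels, circles for replicate 1 and triangles for replicate 2. ITPKA spans 10 to 984 and runs through the ranges of its neighbours, whereas ATP2A2 stays between 308 and 443.

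Over the 8 libraries the tested genes most like ATP2C2 by Pearson r of log2 values were NKIRAS2 (0.997), IRS2 (0.991), SLAMF9 (0.989), BTBD2 (0.988) and BTG1 (0.987), out of all 13369. These libraries share 2 trials and 4 gels, and r takes no account of the size of the differences. IRS2, an insulin receptor substrate, was at 2754 and 2372 normalized counts in soft IPN libraries, 1120 and 566 in the stiff IPN, 2827 and 1511 in the soft col:rBM gel and 1847 and 1001 in the stiff col gel. SLAMF9 had 101 and 93, 9 and 1, 163 and 40, and 66 and 11 in the same order, a wide spread at a low level, while NKIRAS2 ran only from 564 to 872. Within the set, ITPKA and STIM2 ran in opposite directions (r = −0.93), as their replicate 1 and replicate 2 values did in every gel.

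The wider calcium machinery was followed in 148 other genes listed by function, of which 109 were tested. Without the block 0 of the 109 were called in any of the 6 comparisons by limma. At an unadjusted p under 0.05 were 7 between the IPNs, 8 between stiff col and stiff IPN and 16 between the stiff IPN and the other 3 gels. Over all 13369 genes the same counts were 1245, 838 and 1616. With the block 2 of 109 were called between the IPNs, both lower in the stiff IPN, beside 3.82% of all genes called and 2.13% called lower. Between stiff col and stiff IPN 2 of 109 were called, beside 2.47% of all genes. Between the stiff IPN and the other 3 gels 8 of 109 were called, 1 higher and 7 lower, beside 8.28% of all genes called, 3.84% higher and 4.44% lower, so the list is not set apart from all genes by these counts. With equal totals and the block these became 4 between the IPNs, 2 higher and 2 lower, beside 860 of all 13369 genes. Against the other 3 gels they became 12, 7 higher and 5 lower, beside 1305 of all 13369. The calls of ERLIN1 (−0.39, adjusted p = 0.0821) and CAMK2D (−0.29, adjusted p = 0.175) against the other 3 gels were lost in that fit. The list was also written with earlier results of these data known.

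Among genes of ER calcium release and leak, 2 of 9 were called against the other 3 gels with the block, both lower in the stiff IPN. The counts of this and the following function groups stand beside the same 8.28% of all genes. ITPR1, the type 1 inositol trisphosphate receptor, was at normalized counts of 608 and 706 in the soft IPN, 346 and 93 in the stiff IPN, 980 and 608 in the soft col:rBM gel and 694 and 428 in the stiff col gel. Both stiff IPN libraries were the lowest of the 8, as they were for 7.53% of all genes tested. The log2 difference of ITPR1 was −1.85 from the other 3 gels (SE 0.32, adjusted p = 0.0177; without the block adjusted p = 0.279) and −1.86 from the soft IPN (SE 0.40, adjusted p = 0.0458; without the block 0.493). ERLIN1, which takes part in the turnover of these receptors, differed by −0.57 (SE 0.12, adjusted p = 0.0323; without the block 0.359). PLCE1, a phospholipase C that makes inositol trisphosphate, was the 1 gene of 21 called in its group, at −1.73 (SE 0.37, adjusted p = 0.0314; without the block 0.302), from counts of at most 53.

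Of 6 partners of store-operated entry tested, ORAI2 alone was called. This homolog of ORAI1 was at normalized counts of 286 and 227 in the soft IPN, 194 and 112 in the stiff IPN, 405 and 217 in the soft col:rBM gel and 433 and 229 in the stiff col gel. It was lowest in the stiff IPN in each replicate, at −0.96 from the other 3 gels (SE 0.17, adjusted p = 0.0175; without the block 0.385), and stiff col exceeded stiff IPN by 1.09 (SE 0.21, adjusted p = 0.0391; without the block 0.778). ORAI1 had its highest values in that same gel, with the difference of 0.30 given above.

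SLC8B1, the sodium and calcium exchanger of mitochondria, was the 1 of 5 pumps and exchangers called. Its level was 439 and 625 normalized counts in soft IPN libraries, 520 and 716 in the stiff IPN, 349 and 449 in the soft col:rBM gel and 313 and 402 in the stiff col gel. Each stiff IPN library was the highest of its replicate, at 0.54 above the other 3 gels (SE 0.12, adjusted p = 0.0343; without the block 0.41), and stiff col lay below it by a log2 difference of −0.78 (SE 0.15, adjusted p = 0.0391; without the block 0.679).

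NUCB1, a Golgi calcium-binding protein, was the 1 of 11 luminal binding proteins called, at −0.87 against the other 3 gels (SE 0.16, adjusted p = 0.0189; without the block 0.412) and −1.01 against the soft IPN (SE 0.19, adjusted p = 0.0369; without the block 0.539). CAMK2D, a calmodulin-dependent kinase, was the 1 of 17 called in its group, at −0.47 (SE 0.11, adjusted p = 0.0427; without the block 0.665). PTHLH, the parathyroid hormone related peptide, was the only tested gene of its group, at −1.03 (SE 0.24, adjusted p = 0.0377; without the block 0.339). No gene was called among 17 other calcium channels (−0.44 to 1.23, with PIEZO1 the highest in level at a median count of 2466) or 10 cytosolic calcium sensors (−0.20 to 0.78). None was called among 10 genes of mitochondrial uptake (−0.42 to 0.51, VDAC1 highest at 12371). The same held for 2 further genes listed with the SERCA and secretory pathway pumps (−0.58 and 0.19, C4orf3 highest at 2090). The pump genes ATP2A1 and ATP2A3 of that group had too few counts to be tested. Each of the 8 blocked calls against the other 3 gels was lost without at least 1 library, at highest adjusted p from 0.0524 (ORAI2) to 0.136 (CAMK2D). ORAI2 and NUCB1 lost theirs without replicate 2 of the soft IPN, ITPR1 without that library or replicate 1 of stiff col, PTHLH without replicate 2 of the stiff IPN or replicate 1 of either collagen gel, and the other 4 genes without any of 5 to 7 libraries. The calls of the other comparisons were lost without either soft IPN library for NUCB1 and without any of 6 libraries for ITPR1, ORAI2 and SLC8B1.

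**Figure D4:**
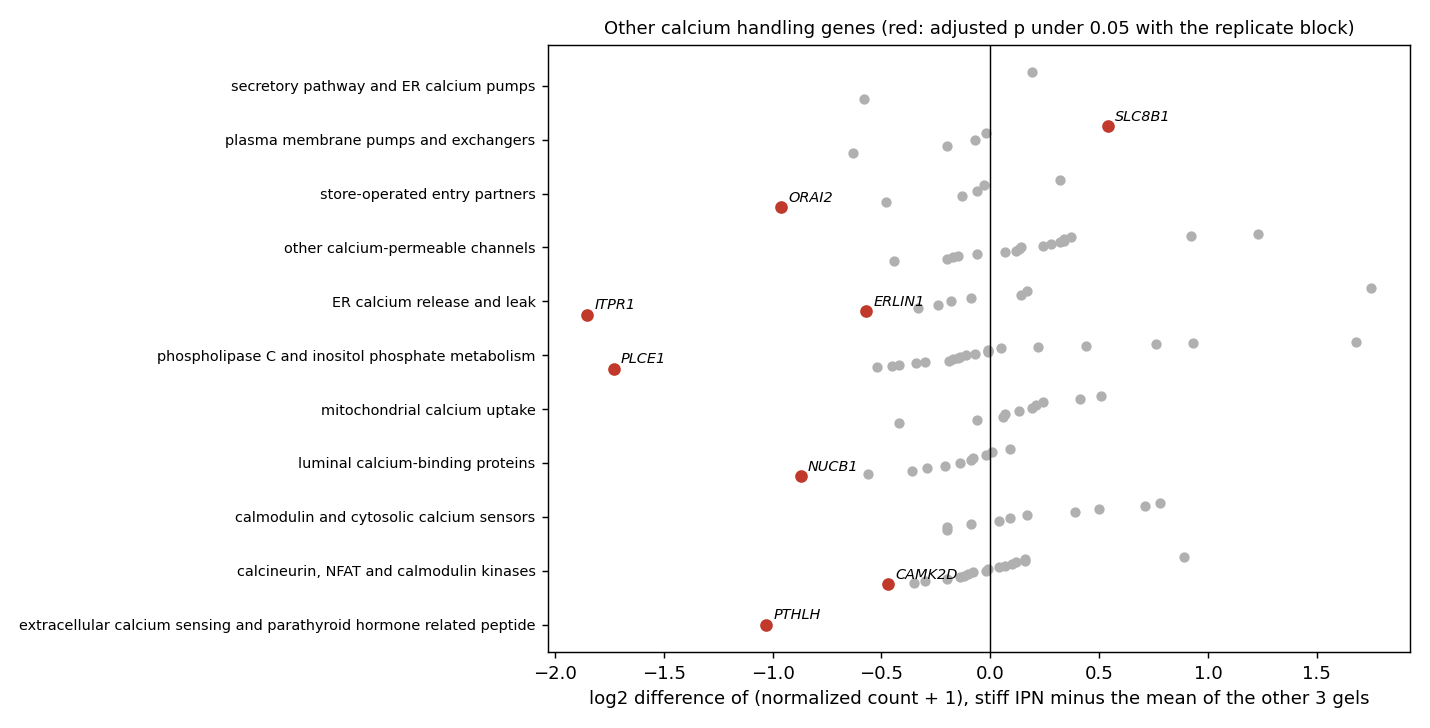
Log2 differences of (normalized count + 1) between the stiff IPN and the mean of the other 3 gels for the 109 other calcium handling genes tested, 1 row per function group, with red for an adjusted p under 0.05 with the replicate block. The 7 red genes below 0 run from ITPR1 at −1.85 to CAMK2D at −0.47, and the 1 above 0 is SLC8B1 at 0.54.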

How the data were processed

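RNA from 8 MCF10A cultures (4 gels, 2 replicates each) was sequenced by the authors. The processing notes of the authors name Trim Galore 0.3.3, TopHat2 2.0.13, SAMtools 1.1, HTSeq counting on hg19 and DESeq2 in R 3.2.0. Their methods name Bowtie2 as the aligner and removal of unmapped, low quality and multimapped reads, and which aligner made these values was not settled. The annotation and the strand setting are not given in the sources used here. The deposited values are whole-number signal values, normalized counts that the authors made by multiplying the read counts of a library by 1 factor. Totals were 14306848 to 17999273, and the factors, found from the values that rounding skips, put the depth at 13065615 to 18590052 units counted on genes (called reads here). Sequencing was paired-end, so 1 unit may stand for a pair, and the methods give a larger depth in post-filter reads, a different quantity. Of the rows, 28 gene names had been turned into dates, and 25369 rows were kept.

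Log2(normalized count + 1) was fitted with limma 3.58.1 (R 4.3.3; trend and robust moderation) over all 8 libraries, 1 mean per gel, for genes with at least 10 in at least 2 libraries. The replicate number as a block was the alternative. Same-numbered libraries deviated together in all 6 pairs of gels (r = 0.278 to 0.819), and the methods describe 2 independent trials, so the numbers were taken to pair the libraries and the blocked values are given beside the results they change. With 2 libraries per gel, a two-sided exact permutation test of 1 gene could not go below p = 0.333. The fits were tested on simulated data. Exon lengths and positions came from GENCODE 44 lifted to hg19. The genes of the set and the list of other calcium handling genes were chosen with earlier results of these data known, and 1 gene of the list is not reported here. All genes of the set are named; of the others, those called, and for a group without a call its gene of highest level (none for the cytosolic sensors); and for the gene with the widest range of gel means the 5 most alike.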

Additional observations from a re-analysis of the deposited data

How the results depend on the processing

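Without the replicate block, 0 genes were called except 3 for the stiff IPN against the other 3 gels. With the replicate block, 511 genes were called between stiff and soft IPN, 330 between stiff col and stiff IPN, 3 between soft col:rBM and soft IPN, 1107 between the stiff IPN and the other 3 gels and 2 for the difference between the stiffness effects, and the other calcium handling genes called were 2 between the IPNs, 2 between stiff col and stiff IPN and 8 against the other 3 gels. Between the IPNs, fitting the compared libraries alone gave 1 call. For stiff col against stiff IPN, a pseudocount of 5 gave 4 calls, and leaving out 1 library 0 to 5. For the stiff IPN against the other 3 gels, a pseudocount of 5 gave 9 calls, no filter 14, a filter of 10 in all 8 libraries 1, no trend or robust moderation 6, and leaving out 1 library 0 to 16. The cause was not tested. With the block, leaving out 1 library gave 0 (without replicate 2 of the soft IPN) to 2670 genes (without replicate 1 of the stiff IPN) between the IPNs, 36 (without replicate 1 of stiff col) to 2191 between stiff col and stiff IPN, 271 to 3066 against the other 3 gels, and 0 to 658 for the difference between the stiffness effects; calls among other calcium handling genes ran from 0 to 14, 0 to 10, 1 to 17 and 0 to 2, and among the 10 genes from 0 to 4, 0 to 4, 2 to 6 and 0 to 2. Equal totals with the block gave 4 calcium handling genes between the IPNs and 12 against the other 3 gels, beside 860 and 1305 of all genes. These blocked refits were chosen after seeing the data. Of 516 log2 differences of the 9 genes under alternatives with all libraries, 16 moved by more than the spread within gels and 13 changed sign, 12 of them under equal totals. With 2 libraries per gel, small differences such as those of ATP2C1 and STIM1 are not resolved, and genes near 3 reads, such as TRPV6, are below detection.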

Other observations

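Between the trials, 4 of the 9 calcium pump and entry genes tested moved the same way in all 4 gels, with ATP2C2, ATP2B4 and ITPKA lower and STIM2 higher in replicate 2, which is 44.4% of them against 44.5% of all genes tested. Among the 109 other calcium handling genes the share was 53.2%, with 26 higher and 32 lower in replicate 2. The widest of these was CALML3, a calmodulin-like gene of epithelia, which exceeded replicate 1 by 3.46 on the log2 scale in the soft IPN, 1.97 in the stiff IPN, 4.03 in the soft col:rBM gel and 3.36 in the stiff col gel. NFATC4, a calcineurin-dependent transcription factor, was the lowest, at −3.37, −1.26, −1.83 and −2.02 in the same order. The ER chaperone HSP90B1 was lower in replicate 2 by −0.94, −0.34, −1.09 and −1.10. These genes were picked after their values were seen, and the replicates have no treatment that separates them.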
